A study of Mus musculus with 2 samples.

Results

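Complement is a cascade of secreted proteins and of the cell-surface proteins that hold it in check. In the classical pathway the protease C1r activates C1s, which cuts C4, the alternative pathway amplifies through factor B and factor D, and both meet at C3, whose fragments coat targets and start the inflammatory signals of the later steps. Cells protect themselves with CD55, which takes the C3-cutting enzymes apart, and with CD59, which blocks the last step at the membrane, and clusterin is a secreted chaperone that also binds the terminal complex. The liver makes most circulating complement, and mesenchymal stromal cells are among the other sources. The 9 genes described here are C3, C4b (a mouse C4 gene), C1s1 and C1ra (the mouse genes for C1s and C1r), Cfb (factor B), Cfd (factor D, also called adipsin), Clu (clusterin), Cd55 and Cd59a, out of the 32285 genes in the count tables. They were picked by name, with earlier results of these data known.

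Femurs and tibiae of 3 male INK-ATTAC mice, aged 24 months, were digested with their marrow, and the Lin-CD45- cells were pooled and captured for droplet-based 3′ single-cell RNA-seq, whose counts were deposited as 2 samples labelled rep1 and rep2. INK-ATTAC mice carry a transgene in which a p16Ink4a promoter fragment drives a drug-inducible caspase 8, so that p16-expressing cells can be killed, and these mice had not received the drug. All cells carried that transgene, and young, wild-type or treated cells were not analysed here. Lin- means that cells with blood lineage markers, Ter-119 of red cells among them, had been depleted by magnetic sorting, and CD45- that white blood cells had been gated out. Against these labels, both held 1 set of cells (they shared 10928 of 11056 barcodes, with counts that differed by less than sampling noise), so they were counted as 1 sample and their unique molecular identifiers (UMIs, 1 per captured transcript) were summed per barcode. They held 116827845 and 120556381 UMIs. With 1 pooled sample there is no test between animals, no p-value is given, and every interval is a 95% interval of counting error only.

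Of the 11056 barcodes, 9573 had at least 200 genes and at most 20% mitochondrial UMIs. A cell was called LEPR stromal-like with at least 1 Lepr UMI and at least 5000 CPM (counts per 1000000 UMIs) of Cxcl12, the chemokine of the leptin receptor-positive cells that form the marrow niche. Fibroblast-like, endothelial-like, megakaryocyte-like and erythroid-like cells were called from summed marker lists that held no complement gene. This gave 1877 LEPR stromal-like cells (19.6% of the cells kept, median 5188 UMIs), 85 fibroblast-like (median 8902), 46 endothelial-like (median 3614), 89 megakaryocyte-like (median 8679) and 6768 erythroid-like cells (70.7%, median 26663.5), and left 708 cells without a class. The labels call the sample mesenchymal, whereas erythroid genes marked most of its cells. Of the cells near a cut, 166 of the LEPR stromal-like cells had under 10000 CPM of Cxcl12 and 90 cells fell short of the cut by less than a factor of 2.

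The class names held against markers that the gates did not use. All 10 check markers of LEPR stromal cells, such as Adipoq (1149 CPM) and Kitl (1779 CPM), were highest in the LEPR stromal-like cells, as were 8 of 8 endothelial and 7 of 7 megakaryocyte check markers in their classes. Of the fibroblast check markers, 6 of 8 were highest in fibroblast-like cells, and Pdgfra (380 CPM in LEPR stromal-like and 378 CPM in fibroblast-like cells) and Ly6a (highest in endothelial-like cells) were the exceptions. For the erythroid list, 6 of 8 were highest in their class, Aqp1 and Gfi1b being the exceptions. Among markers of other cells that make complement, the 5 adipocyte markers came to 3.16 CPM and the 6 macrophage markers to 17.5 CPM in LEPR stromal-like cells, with 2 of each at 0. The 5 osteoblast markers came to 3003 CPM there, of which Ibsp made up 2969 CPM, with Sp7 at 28.8 CPM and Dmp1, Bglap2 and Bglap at 2.79, 1.77 and 0.372 CPM, and Bglap (110 CPM) and Bglap2 (68.4 CPM) were highest in fibroblast-like cells. The chondrocyte list reached 417 CPM in fibroblast-like cells.

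In the mouse genome (GRCm38, GENCODE M21), C3 lies at chr17:57203970-57228136, C4b at chr17:34728380-34743882 and Cfb at chr17:34856374-34862518, all on the minus strand, with 112 kb between C4b and Cfb. C1ra at chr6:124512405-124523443 (plus strand) and C1s1 at chr6:124530345-124542359 (minus strand) lie 6.90 kb apart. Clu lies at chr14:65968483-65981547 (plus), Cd55 at chr1:130439027-130462744 (minus), Cd59a at chr2:104095801-104115354 (plus) and Cfd at chr10:79890853-79892655 (plus). Every one of them is protein-coding. Several have a near copy: in the last 500 bases of the longest coding transcript, 20.2% of the 90-base windows of C4b also occur in C4a, 11.2% of those of C1ra in C1rb and 2.68% of those of C1s1 in C1s2, while none of Cd59a occurs in Cd59b or of Cd55 in Cd55b. Counts of C4b and C1ra are to that extent uncertain. The copies themselves were low in LEPR stromal-like cells, at 2.88 CPM (C4a), 1.40 CPM (C1rb) and 0.279 CPM (C1s2).

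To set genes high in LEPR stromal-like cells beside genes low in them, the 250 bases before the start of transcription are printed for C3 and C1s1, and for Cd55 and Cd59a. RefSeq sequences (GRCm38.p6) were at hand for 6 of the 9 genes. C3 is chr17:57228137-57228386 and C1s1 is chr6:124542360-124542609, both minus strand, Cd55 is chr1:130462745-130462994 (minus strand) and Cd59a is chr2:104095551-104095800 (plus strand). Capitals mark every match, on either strand, to 7 motifs, which were AGATAA for GATA factors, TTNNGNAA for C/EBP factors, GAAANNGAA for the interferon response element, GGANTTNCC for NF-kB, and the CCAAT box, the CACCC box and, with the letters TATAAA, the TATA box, and no printed match overlaps another.
C3: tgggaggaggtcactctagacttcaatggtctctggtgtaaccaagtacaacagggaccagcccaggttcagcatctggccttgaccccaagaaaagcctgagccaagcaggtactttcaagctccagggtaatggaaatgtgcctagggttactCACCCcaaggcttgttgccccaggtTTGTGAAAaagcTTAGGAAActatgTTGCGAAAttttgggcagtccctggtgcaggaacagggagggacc
C1s1: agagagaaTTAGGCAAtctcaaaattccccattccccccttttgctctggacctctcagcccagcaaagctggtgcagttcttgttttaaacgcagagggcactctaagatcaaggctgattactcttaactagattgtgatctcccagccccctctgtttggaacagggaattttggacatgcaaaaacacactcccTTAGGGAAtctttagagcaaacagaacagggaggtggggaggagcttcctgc
Cd55: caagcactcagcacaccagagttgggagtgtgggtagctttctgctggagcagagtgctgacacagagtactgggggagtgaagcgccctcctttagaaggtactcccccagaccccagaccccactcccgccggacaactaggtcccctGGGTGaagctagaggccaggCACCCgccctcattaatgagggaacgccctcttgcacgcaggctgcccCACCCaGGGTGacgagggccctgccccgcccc
Cd59a: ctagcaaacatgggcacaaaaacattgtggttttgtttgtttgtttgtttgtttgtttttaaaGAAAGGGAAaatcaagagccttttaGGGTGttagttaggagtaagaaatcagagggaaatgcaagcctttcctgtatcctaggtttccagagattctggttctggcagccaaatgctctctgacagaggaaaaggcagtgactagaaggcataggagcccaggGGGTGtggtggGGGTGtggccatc
The C3 stretch holds 3 matches to the C/EBP letters, TTGTGAAA, TTAGGAAA and TTGCGAAA, which begin 70, 58 and 45 bases before the start, and that of C1s1 holds 2, TTAGGCAA and TTAGGGAA, at 242 and 52 bases. Among all 32851 promoter stretches of this length, 36.8% hold at least 1 such match. Neither Cd55 nor Cd59a has one in its stretch, and they hold 4 and 3 matches to CACCC, of which the C3 stretch holds 1, and which occurs in 52.0% of all stretches, and Cd59a has 1 match to the interferon letters, which 7.13% of all stretches hold. Of the genes at hand but not printed, the C1ra stretch holds C/EBP matches at 72 and 29 bases. That of Cfd, low in LEPR stromal-like cells, holds a CACCC match and no C/EBP match. For another RefSeq start of C1s1, the only C/EBP match lies at 90 bases. A match of letters describes the sequence and is not evidence of binding.

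The components of the cascade were high in LEPR stromal-like cells. Levels of different genes are compared as counts of transcript 3′ ends, which do not grow with transcript length. C4b was the highest of the 9 there at 893 CPM (867 to 918), with 4635 UMIs in rep1 and 4959 in rep2, followed by Clu at 706 CPM (684 to 729) and C3 at 705 CPM (683 to 728). C1s1 reached 443 CPM (425 to 461), C1ra 335 CPM (320 to 351) and Cfb 309 CPM (294 to 324). Rep1 and rep2 differed little, C3 for example standing at 696 CPM in rep1 and 714 CPM in rep2. Because they held the same cells, their closeness is no replication. Cfd was the exception among the secreted components: its 11 UMIs (1.02 CPM, 0.355 to 2.30) came from 2 of the 1877 cells, and 1 cell held 90.9% of them. Elsewhere Cfd had 4 UMIs in 3 erythroid-like cells and none in the other classes, which allows up to 7.20 CPM in fibroblast-like, 34.0 CPM in endothelial-like and 3.19 CPM in megakaryocyte-like cells. The membrane regulators were low, with Cd55 at 5.67 CPM (3.84 to 8.08) and Cd59a at 5.21 CPM (3.46 to 7.53).

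**Figure D1:**
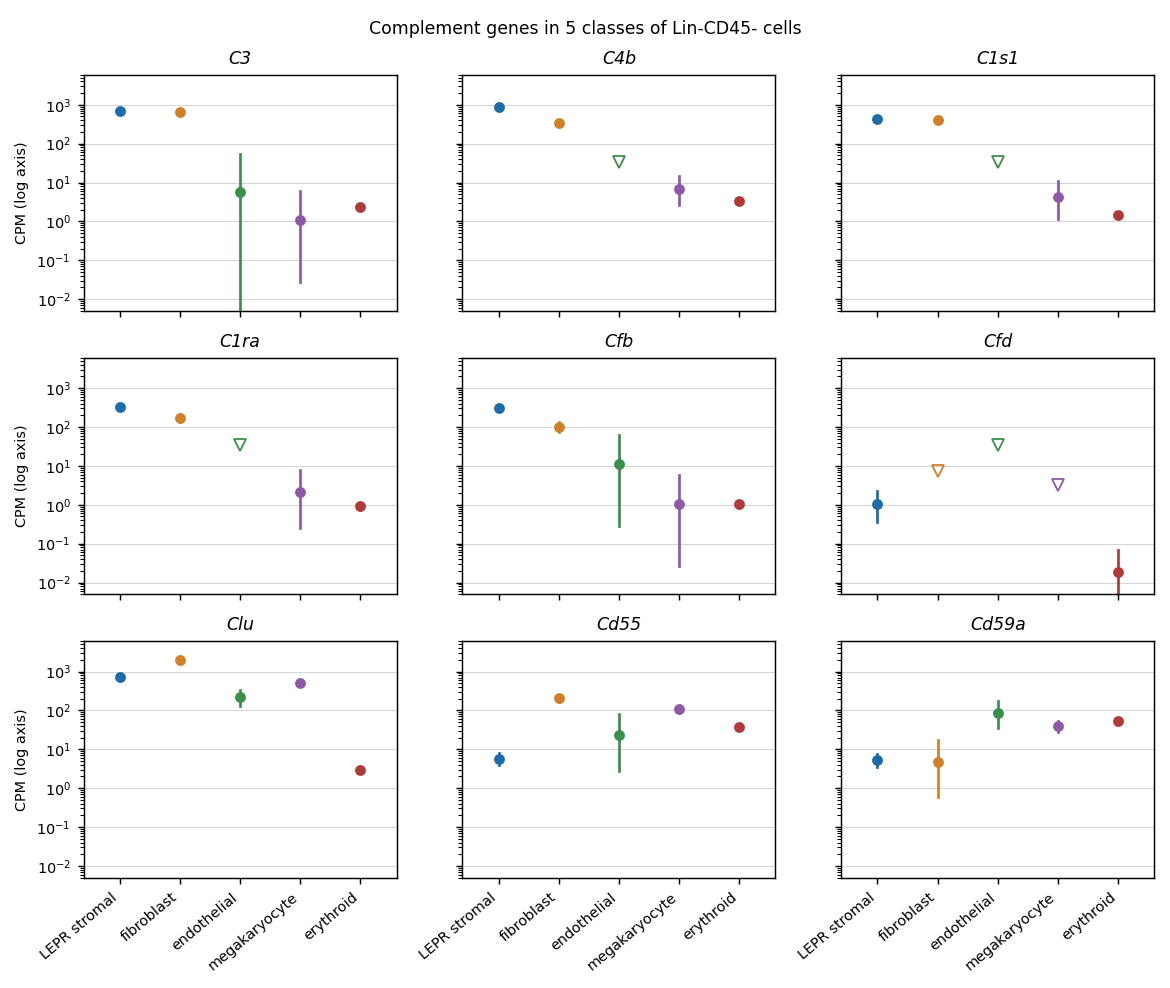
Level (CPM, log axis) of each of the 9 genes in the 5 classes of cells. Points are the CPM of rep1 and rep2 summed, bars the 95% counting intervals (cut off at the lower edge of the axis), and open triangles the limit that 3 counts allow where a class had no UMI; C3, C4b, C1s1, C1ra and Cfb are high in both stromal classes, and Cd55 and Cd59a are lowest or nearly lowest in LEPR stromal-like cells.

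Most LEPR stromal-like cells carried these transcripts. A C4b UMI was found in 88.0% of them, a Clu UMI in 80.9%, C1s1 in 72.5%, C3 in 66.9%, C1ra in 66.9% and Cfb in 55.4%. In the erythroid-like cells, which are not known to make these proteins and were sequenced deeper (median 26663.5 against 5188 UMIs), the same shares were 4.65%, 4.57%, 2.73%, 3.66%, 1.80% and 1.94%. Since depth sets such shares, rep1 was thinned to 1000 UMIs per cell, which 1750 LEPR stromal-like and 6466 erythroid-like cells could provide, leaving out 127 and 302. At that depth C4b was in 53.5%, Clu in 46.1%, C3 in 38.8%, C1s1 in 32.1%, C1ra in 27.7% and Cfb in 23.8% of LEPR stromal-like cells, against at most 0.510% of erythroid-like cells for any of the 6. At least 1 of the 9 genes was detected in 90.4% of the thinned LEPR stromal-like cells, at least 2 in 68.2% and at least 3 in 40.8%. The corresponding shares of erythroid-like cells were 9.26%, 0.309% and 0 of 6466, and of the 599 cells behind the first, Cd55 was in 243 cells and Cd59a in 285.

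**Figure D2:**
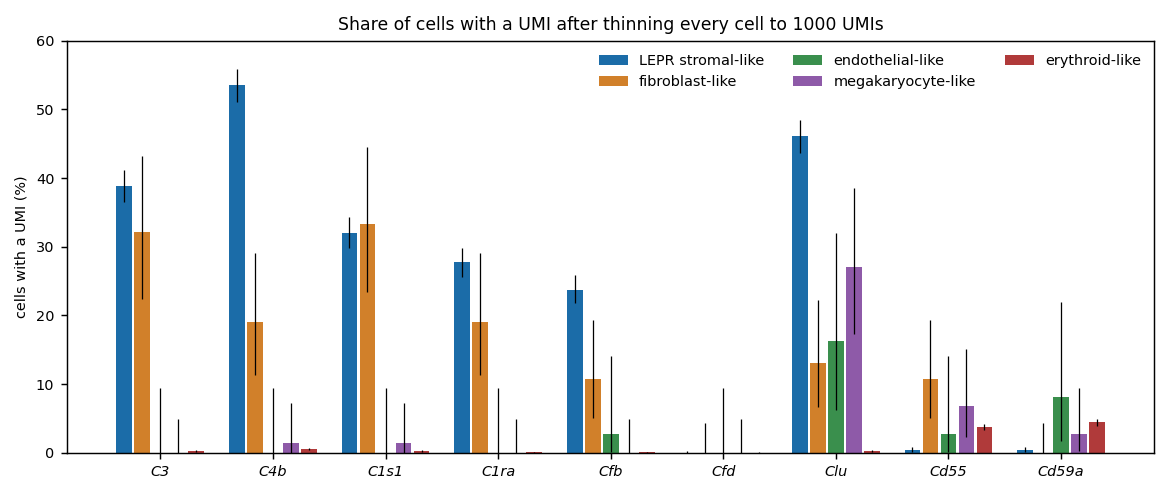
Share of cells (%) with at least 1 UMI of each gene after rep1 was thinned to 1000 UMIs per cell, in the 5 classes. Bars start at 0 and lines are 95% Clopper-Pearson intervals; the LEPR stromal-like bars stand at 53.5% for C4b and 23.8% for Cfb, and Cd55 and Cd59a are at 0.400% there.

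C3 was spread less evenly over the LEPR stromal-like cells than the other 5 stromal genes. In thinned cells C3 had a variance 1.80 times its mean, the most of the 6, where a variance equal to the mean is what counting alone gives. The value was 1.29 for C4b, 1.24 for Cfb, 1.22 for Clu, 1.16 for C1s1 and 1.09 for C1ra. Over the 1502 genes with a mean of at least 0.1 UMI in these cells the median was 1.08 and the 90th percentile 1.37, so that C3 lay above that percentile and the other 5 at or below it. C3 was found in 38.8% of thinned cells, where the mean level with Poisson counting would give 49.8%.

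Cells rich in C3 also held more of the other stromal members. In the 469 LEPR stromal-like cells with the most C3 (above 990 CPM), Cfb was 1.61-fold higher than in the other 1408 (431 against 268 CPM, log2 0.68, 0.54 to 0.83). C1s1 was 1.52-fold higher (log2 0.61, 0.48 to 0.73), C1ra 1.44-fold (log2 0.53, 0.38 to 0.67) and C4b 1.37-fold (log2 0.46, 0.37 to 0.55). Clu differed less, by 1.11-fold (log2 0.15, 0.05 to 0.26). Intervals above 0 were found for 4.29% of the 9471 genes with at least 100 UMIs in this split. Serping1, the gene for the C1 inhibitor, was 1.28-fold higher, while for C2, the partner of C4, the interval covered no difference (log2 0.11, -0.10 to 0.32). Colec12 was higher too (log2 0.14, 0.01 to 0.27). The genes that chose the cells, given as a description, stood at 1752 against 1506 CPM (Lepr) and 22680 against 22023 CPM (Cxcl12). Depth was similar (median 5375 against 5106.5 UMIs). Erythroid gate genes came to 491 CPM in the C3-rich cells and 738 CPM in the rest, and the part of this difference in the result was not tested.

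Fibroblast-like cells carried the same 5 cascade components, of which C4b, C1ra and Cfb were lower in them than in LEPR stromal-like cells. C3 stood at 666 CPM (590 to 749) in them and at 705 CPM in LEPR stromal-like cells, a ratio of 1.06 (0.937 to 1.20), and C1s1 at 405 CPM (347 to 471), a ratio of 1.09 (0.935 to 1.29). Both intervals cover a ratio of 1, and the order of C3 was not settled: it turned with every cell's CPM averaged (690.2 against 752 CPM), while without the leading cell of each class LEPR stromal-like cells stood at 701 CPM (679 to 724) and fibroblast-like cells at 597 CPM (525 to 676). C4b (343 CPM) was 2.60-fold higher in LEPR stromal-like cells (2.20 to 3.09), C1ra (170 CPM) 1.97-fold (1.55 to 2.53) and Cfb (101 CPM) 3.07-fold (2.26 to 4.27). Of the 7 members with at least 100 UMIs in the 2 classes together, 0 were 4-fold higher in LEPR stromal-like cells, beside 7.33% of all 9725 genes tested, and at that background nothing is read from the count. C3 in fibroblast-like cells came from 37 of 85 cells and the leading cell held 11.2% of its UMIs, whereas C1s1 was found in 62 of 85.

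Clu and Cd55 stood higher in fibroblast-like than in LEPR stromal-like cells, Clu through 1 cell alone. Clu was at 2014 CPM in fibroblast-like cells, but only 17 of 85 cells had a UMI of it and 1 cell held 73.5% of its UMIs. Without that cell the level was 575 CPM (502 to 656), below the 704 CPM of LEPR stromal-like cells with their own leading cell left out, so the order of both classes for Clu turned on 1 cell. That cell had 59856 summed UMIs and was led by Mgp (6742 UMIs), Prg4 (3533), the lubricin gene of joint surfaces, and Fn1 (3529). Cd55 was at 204 CPM (163 to 252) in fibroblast-like cells, in 22 of 85 cells, and was 0.0278 times that level in LEPR stromal-like cells (0.0178 to 0.0425). It was the 1 member at least 4-fold lower in LEPR stromal-like cells, as 2.58% of all genes were. Because Cd55 reached 100 UMIs through fibroblast-like cells alone, nothing is read from this call. Without their leading cell, fibroblast-like cells had 176 CPM of Cd55. Cd59a was low in both classes (4.80 CPM from 4 UMIs in fibroblast-like cells).

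Endothelial-like cells, with 46 cells and 176489 summed UMIs, showed little of the cascade. C4b, C1s1 and C1ra had no UMI in them, which allows a level of up to 34.0 CPM, so that LEPR stromal-like cells were at least 26.3-fold, 13.0-fold and 9.85-fold higher. C3 had 1 UMI and Cfb 2, giving ratios of 124 (13.3 to 126736) and 27.3 (4.89 to 1077), and each came from 1 cell. The 4-fold rule called these 5 (beside 6.6% of all 9550 genes), but they reached its minimum of 100 UMIs through LEPR stromal-like cells alone, so that nothing is read from the count. Clu was found in 8 of 46 cells at 215 CPM (130 to 336), 3.28-fold below LEPR stromal-like cells (2.10 to 5.45). Cd59a stood at 85.0 CPM (35.5 to 171) there, from 15 UMIs in 10 of 46 cells, with ratios over erythroid-like (1.55, 0.649 to 3.13) and megakaryocyte-like cells (2.19, 0.852 to 4.87) whose intervals cover 1. In LEPR stromal-like cells it was 0.0613 times that level (0.0267 to 0.161), although with too few UMIs for the 4-fold rule, which called 2.62% of all genes lower. Cd55 had 4 UMIs in 2 endothelial-like cells.

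Megakaryocyte-like cells carried Clu. Its level was 516 CPM (471 to 565) and 71 of 89 cells (79.8%) had a transcript of it, and LEPR stromal-like cells were only 1.37-fold higher (1.24 to 1.51). Clusterin is known as a protein of platelet granules. The 3 cells with the most Clu held 57.7% of its UMIs, and 776514 of the 1878141 UMIs of the class, each with at least 34480 CPM of the platelet factor gene Pf4, and the median cell had 378 CPM. When every cell's CPM was averaged instead, the order of both classes turned (log2 -0.15). C3, C4b, C1s1, C1ra and Cfb were between 1.06 and 6.92 CPM, from 13 UMIs or fewer each. C4b was 129-fold higher in LEPR stromal-like cells (60.9 to 335), C1s1 104-fold (40.6 to 382) and C1ra 157-fold (43.5 to 1299.8), while C3 and Cfb, with 2 UMIs each, gave ratios of 662 (119 to 26159) and 290.1 (52.0 to 11466). A single cell of 32227 UMIs held 9 of the 13 C4b, 5 of the 8 C1s1 and 3 of the 4 C1ra UMIs, and without it the levels of C4b, C1s1 and C1ra went from 6.92, 4.26 and 2.13 CPM to 2.17, 1.63 and 0.542 CPM, so that these ratios rest on that cell. C4b stood at 3.24 CPM in rep1 and 10.5 CPM in rep2. Here too the 5 genes that the 4-fold rule called (beside 27.5% of all 9939 genes) reached 100 UMIs through LEPR stromal-like cells alone. Cd55 (106 CPM, 86.2 to 129, in 29 of 89 cells) and Cd59a (38.9 CPM, 27.3 to 53.7, in 19) were at least 4-fold lower in LEPR stromal-like cells, as were 5.07% of all genes. Cd55 reached 100 UMIs through megakaryocyte-like cells alone, so that nothing is read from its call. The leading cell held 23.6% of the Cd55 UMIs, and every cell's CPM averaged gave 61.6 CPM.

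In erythroid-like cells all 6 stromal genes, Clu included, were low, and the ratios rested on more counts. C3 stood at 2.34 CPM (2.06 to 2.65), C4b at 3.43 CPM, Clu at 2.92 CPM, C1s1 at 1.46 CPM, Cfb at 1.06 CPM and C1ra at 0.919 CPM. LEPR stromal-like cells were 302-fold higher for C3 (265 to 344), 303-fold for C1s1 (258 to 359), 364-fold for C1ra (297 to 451), 292-fold for Cfb (241 to 356), 260-fold for C4b (234 to 290) and 242-fold for Clu (216 to 272). These were 6 of the 8 genes tested, beside 30.0% of all 12489 genes, and their log2 ratios lay between 7.92 and 8.51 where the median of all genes was 0.71 (0.062 with thinning and 2.48 with no minimum of UMIs per gene). Cd55, in contrast, was at 37.8 CPM (36.6 to 39.0) in erythroid-like cells and 0.15 times that in LEPR stromal-like cells (0.102 to 0.214). Cd59a was at 54.7 CPM (53.3 to 56.1) and 0.0953 times that in LEPR stromal-like cells (0.0633 to 0.138). Both were at least 4-fold lower in LEPR stromal-like cells, as were 9.48% of all genes. They reached 100 UMIs through erythroid-like cells alone, so that nothing is read from the count. Cd55 was found in 45.0% and Cd59a in 48.5% of erythroid-like cells, and in 3.76% and 4.41% after thinning, against 0.400% each in LEPR stromal-like cells, the level of 7 cells.

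The few stromal transcripts counted in erythroid-like cells were set beside Cxcl12. Because at least 5000 CPM of Cxcl12 was required of LEPR stromal-like cells, that choice itself lowers their figures, and the ratios are a description. For every 1000 Cxcl12 UMIs, LEPR stromal-like cells held 31.8 of C3 and erythroid-like cells 34.6, a ratio of 1.09 (0.953 to 1.24). For C1s1 the figures were 20.0 and 21.6, for C1ra 15.1 and 13.6 and for Cfb 13.9 and 15.7, each with an interval of the ratio that covers 1. C4b (40.2 and 50.8, ratio 1.26, 1.13 to 1.40) and Clu (31.8 and 43.1, ratio 1.35, 1.20 to 1.52) were somewhat higher relative to Cxcl12 in erythroid-like cells. The counts sat in few cells: 60 of the 6768 erythroid-like cells had 2 or more C3 UMIs and held 62.5% of all C3 UMIs of the class, with Cxcl12 at 2147 CPM in them and at 40.5 CPM in the others. These cells were also deeper, with a median of 50880 UMIs against 26426. In the erythroid-like cells with under 500 CPM of Cxcl12, a limit chosen after the data were seen, C3 stood at 0.913 CPM and Clu at 1.21 CPM, while Cd55 (37.9 CPM) and Cd59a (54.7 CPM) were nearly as before. The folds of C3 and Clu over erythroid-like cells given above thus depend on such a limit and are larger with it.

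Cd55 and Cd59a in stroma were set beside erythroid RNA in the same way, again as a description, since the erythroid gate genes chose the erythroid-like cells and so lower the figures of that class. Per 1000 UMIs of the erythroid gate genes, Cd59a had 7.71 in LEPR stromal-like and 6.29 in erythroid-like cells, a ratio of 1.23 (0.814 to 1.77) whose interval covers 1. Cd55 had 8.40 and 4.35, a ratio of 1.93 (1.31 to 2.75), and Cd59b, a copy of Cd59a, 5.78 and 1.31, a ratio of 4.41 (2.72 to 6.77). The levels of both regulators within LEPR stromal-like cells also went with erythroid RNA. In the 469 cells with the most erythroid gate RNA (1967 CPM against 306 CPM), Cd59a stood at 12.1 CPM against 3.23 CPM (log2 1.91, 0.73 to 3.09) and Cd55 at 11.7 CPM against 3.95 CPM (log2 1.56, 0.43 to 2.68). The LEPR stromal-like class included 146 cells past the 1500 CPM cut of the erythroid gate list.

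Among erythroid-like cells themselves the 2 regulators differed. Grouped by the share of a cell's UMIs from globin genes, a measure that rises as red cells mature, Cd59a stood at 22.3 CPM (20.5 to 24.2) in the 1889 cells under 0.5%, and at 35.0, 51.2, 73.6 and 111 CPM in the groups that followed, the last being the 815 cells at 6% or more (104 to 117). That is a 4.96-fold difference (4.47 to 5.51). CD59 is known for shielding red cells from lysis. Cd59b went from 4.96 to 19.5 CPM over the same groups. Cd55 was highest in the first group at 40.4 CPM and lowest in the last at 28.5 CPM, a 1.42-fold difference (1.24 to 1.62). C3 had no such order, its levels lying between 1.63 and 3.11 CPM. Total UMIs differed between the groups (median 11387 in the first, 41631.5 in the fourth and 21644 in the last), and the part of depth in this order was not tested.

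**Figure D3:**
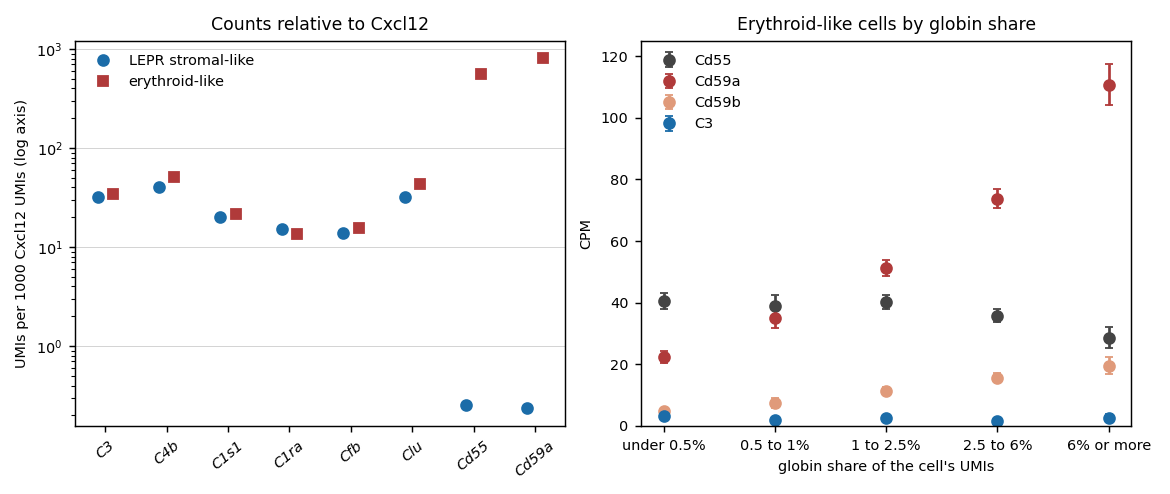
Left, UMIs of 8 of the genes per 1000 Cxcl12 UMIs (log axis) in LEPR stromal-like and erythroid-like cells; the first 6 genes lie close together in both classes, and Cd55 and Cd59a lie apart by 2184-fold and 3441-fold. Right, CPM of Cd55, Cd59a, Cd59b and C3 in erythroid-like cells grouped by the globin share of their UMIs, with 95% counting intervals; Cd59a goes from 22.3 to 111 CPM.

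The complement genes were next compared within LEPR stromal-like cells, between the 469 cells highest in a list of interferon, acute phase, adipogenic, osteogenic or immediate-early genes and the other 1408. Of the 6 stromal genes, Cfb had the largest ratio for the first 3 lists. Cells highest in the interferon list held 407 against 273 CPM of Cfb (log2 0.57, 0.43 to 0.72), those highest in the acute phase list 397 against 274 CPM (log2 0.53, 0.39 to 0.68) and those highest in the adipogenic list 396 against 274 CPM (log2 0.53, 0.39 to 0.68). C3 was higher with the interferon list (839 against 656 CPM, log2 0.35, 0.25 to 0.45) and the acute phase list (833 against 655 CPM, log2 0.35, 0.25 to 0.45), but not with the adipogenic list (log2 0.03, -0.08 to 0.13). C4b was highest relative to the rest with the adipogenic list (1093 against 812 CPM, log2 0.43, 0.34 to 0.52).

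With the osteogenic list the order turned for C3, which stood at 568 CPM in the cells highest in it and at 754 CPM in the rest (log2 -0.41, -0.52 to -0.30). C1s1 (log2 -0.21, or 0.046 with an interval that covers 0 when the Cxcl12 limit was 2500 CPM) and Cfb (log2 -0.24) were lower too, C4b and C1ra had intervals that cover 0, and Clu was slightly higher (log2 0.16, 0.05 to 0.26). The immediate-early list, genes induced within minutes by handling and other stimuli, went with lower Cfb (log2 -0.24) and Clu (log2 -0.24) and with C3 at log2 0.11 (0.00443 to 0.21). Counting intervals above 0, these were 5 of the 9 genes for the interferon list, 6 for the adipogenic and 7 for the acute phase list, where 10.7%, 12.7% and 11.4% of 9471 genes had such intervals. For the osteogenic list 1 was above and 3 below 0, and for the immediate-early list 1 and 2, beside 7.54% and 6.44%, and 7.17% and 5.92%, of all genes. Cfd counts among those above for the adipogenic and acute phase lists, from its 11 UMIs. The 9471 genes each had at least 100 UMIs in these cells, which Cfd, Cd55 and Cd59a did not. Intervals also narrow with more UMIs, so the counts and these shares are not a like comparison. No list held a complement gene.

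Erythroid RNA moved with these groups. The erythroid gate genes came to 436 CPM in the cells highest in the interferon list and 764 CPM in the rest, and to 410 and 780 CPM for the acute phase, 407 and 784 CPM for the adipogenic and 425 and 765 CPM for the osteogenic list. In the cells with the most erythroid RNA all 6 stromal genes had intervals below 0, from log2 -0.30 (Cfb) to -0.53 (Clu), beside 13.6% of all genes. Cd55 and Cd59a had intervals above 0, beside 10.2%, a share over genes with at least 100 UMIs, which neither reached. When those 469 cells were left out, an alternative chosen after the data were seen, Cfb remained at log2 0.43 (0.27 to 0.60) for the interferon list, 0.47 (0.30 to 0.63) for the acute phase list and 0.58 (0.41 to 0.74) for the adipogenic list. C3 was then at log2 0.21 (0.09 to 0.32) for the interferon and at -0.51 (-0.64 to -0.38) for the osteogenic list. C1s1 was then at log2 0.04 (-0.10 to 0.18) for the adipogenic list, where it had been at 0.19 (0.06 to 0.32). The intervals also came to cover 0 for Clu by the osteogenic list (log2 0.063, -0.051 to 0.18) and for Cfb by the immediate-early list (log2 -0.17, -0.36 to 0.010). Depth moved with the lists as well, its median lying between 5272 and 6351 UMIs in the cells highest in the 5 lists and between 4845 and 5152 UMIs in the rest, and its part in the results was not tested.

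**Figure D4:**
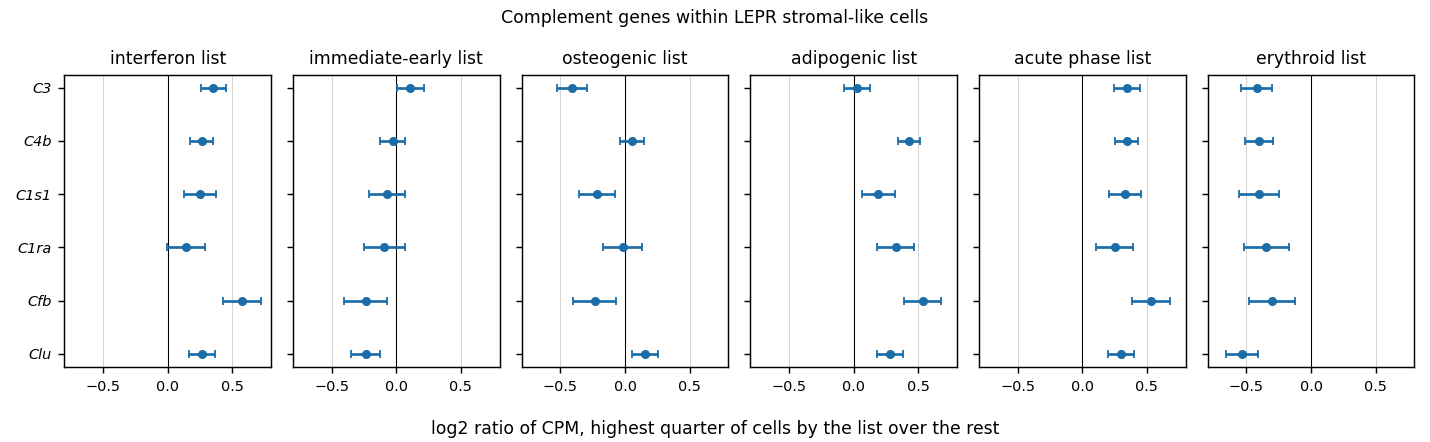
Log2 ratio of CPM of 6 complement genes between the 469 LEPR stromal-like cells highest in a gene list and the other 1408, for 6 lists. Points are ratios, bars 95% counting intervals and the vertical line is no difference; Cfb lies at 0.57 for the interferon list and C3 at -0.41 for the osteogenic list.

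A wider list of 44 other complement genes placed these members in the pathway. Of the 44, 25 had at least 10 UMIs in 1 of the classes and 10 had none in any class, among them the late components Hc (C5), C8a, C8b and C9. Of the 25, 14 were highest in LEPR stromal-like cells, 4 in fibroblast-like, 4 in endothelial-like, 1 in megakaryocyte-like and 2 in erythroid-like cells. For most of them the place is not settled at this depth. Intervals clear of every other class were found for 3 of the 14 (Serping1, Colec12 and C2), for C7 in fibroblast-like, Cd93 and Cr1l in endothelial-like and C1qbp in erythroid-like cells, and Cfp, for example, rests on 1 UMI in endothelial-like cells. Serping1, a soluble inhibitor, led at 1765 CPM in LEPR stromal-like cells, in 90.2% of them. It exceeded C3 and C4b in UMIs and was nearly as high in fibroblast-like cells, with a ratio of 1.33 (1.22 to 1.45). Colec12, a scavenger receptor with a collectin domain, was at 454 CPM. C2, the partner of C4 in the classical pathway, was at 175 CPM and 5.20-fold above fibroblast-like cells (3.09 to 9.55), and C6, a terminal component, at 39.3 CPM in 13.0% of LEPR stromal-like cells with 1 UMI in fibroblast-like cells. C7, another terminal component, was in 21.2% of fibroblast-like cells at 75.6 CPM, and its 8 UMIs in LEPR stromal-like cells came from 1 of 1877 cells. Cd93 was at 686 CPM in endothelial-like cells. The C1q chains, known as products of macrophages, did not reach 10 UMIs in any class. C1qbp, which despite its name encodes a largely mitochondrial protein, was highest in erythroid-like cells at 320 CPM.

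Against the other classes, the wider list had 2 of 10 genes tested at least 4-fold higher in LEPR stromal-like than in fibroblast-like cells, 3 of 10 against endothelial-like, 6 of 10 against megakaryocyte-like and 10 of 16 against erythroid-like cells, to be read beside the shares of all genes given above and as a description, since genes such as C6 reached 100 UMIs through LEPR stromal-like cells alone. Lower by at least 4-fold were 0, 1, 0 and 1 of them. Cr1l, the mouse complement regulator of the CD55 and CD46 kind that sits on many cells, was higher in LEPR stromal-like cells than either of them, at 99.8 CPM and in 32.0% of cells, and stood at 67.2 CPM in erythroid-like cells and highest in endothelial-like cells, at 227 CPM (138 to 350). Cd46 was at 8.09 CPM.

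**Figure D5:**
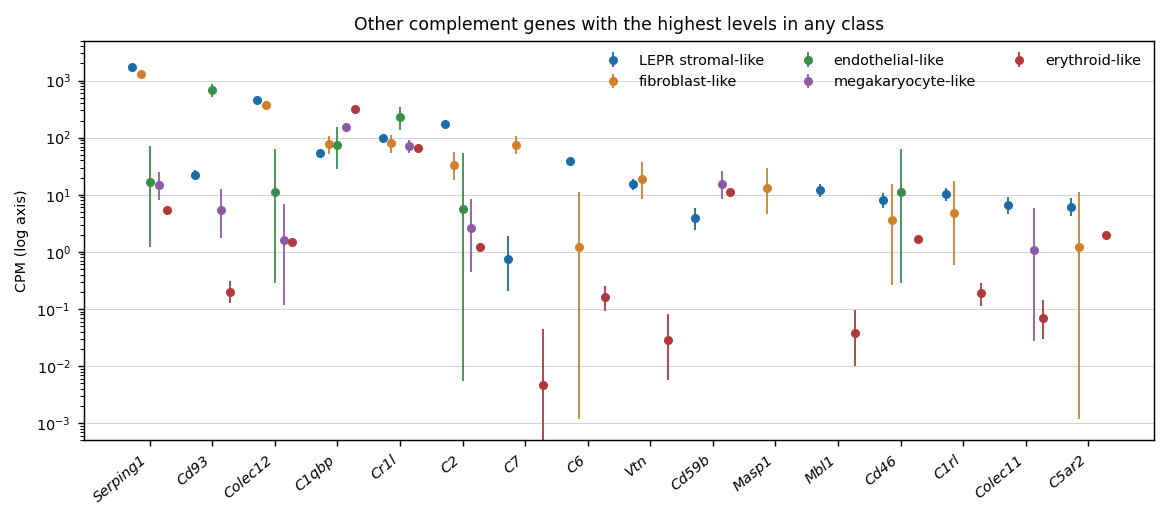
Level (CPM, log axis) in the 5 classes of the 16 genes of the wider complement list with the highest level in any class, with 95% counting intervals. A class without a UMI has no point; Serping1 is the highest at 1765 CPM in LEPR stromal-like cells, C7 is highest in fibroblast-like cells at 75.6 CPM, and Cd93 in endothelial-like cells at 686 CPM.

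Among 9988 genes with at least 500 UMIs, the genes whose levels over the 5 classes were most like those of each member, by root mean squared difference of centred log2(CPM + 1), were mostly of stroma. For C1s1 they were Islr (0.152), Plxdc2 and Rarres2, for C1ra Serpina3n (0.172), Adamts2 and Svep1, for C3 Col6a1 (0.320), Lrp1 and Gpx3, for C4b Fst (0.335), Rarres2 and Islr, and for Cfb Ms4a4d (0.291), Bmp4 and Olfml2b. Clu and Cd55 had no close partner, their nearest being Anxa5 (0.809) and Dock11 (0.762). For Cd59a they were Exoc6 (0.339), Serpinb6b and Cxcr4, and for Cfd, which has almost no counts, Nbas (0.104), Xpo6 and Polg. These differences describe 5 points of 1 sample each.

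In the 708 cells without a class, the stromal members lay between the LEPR stromal-like and the erythroid-like cells, with C4b at 67.7 CPM, Clu at 70.3 CPM, C3 at 61.5 CPM and Cfb at 18.3 CPM. Cxcl12 was at 1238 CPM in them. Cd55 and Cd59a stood at 25.6 and 25.4 CPM.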

How the data were processed

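Lin-CD45- bone and marrow cells of 3 pooled INK-ATTAC mice (male, 24 months) were profiled by 10x Chromium 3′ RNA-seq. The authors used Cell Ranger for alignment and counting, with mm10 as build (per the submitters' processing notes, which also name R 4.0.3 and Seurat 4.0). They deposited 1 table of raw counts (UMIs by gene and barcode) per sample (rep1 and rep2), not normalized, limited to barcodes called as cells. The count header and the methods name different Cell Ranger versions. Because 1 molecule can appear in both tables, levels, ratios and the limit for genes at 0 (3 counts) took their intervals from the average of both tables, and shares of cells (Clopper-Pearson) took a UMI from either. The tables held 116827845 and 120556381 UMIs. All intervals (95%) cover counting error only.

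The 9 genes and all lists were chosen with earlier results of these data known, and the cuts on the gate lists were set after their distributions had been seen. Besides the LEPR gate, a class needed a summed gate-list CPM of at least 2000 (fibroblast), 1000 (endothelial), 4000 (megakaryocyte) or 1500 (erythroid) and at least 2 gate markers with at least 2 UMIs. The LEPR gate came first, and 23 cells meeting more than 1 of the other gates got no class. The 146 LEPR stromal-like cells past the erythroid cut therefore stayed LEPR stromal-like. Doublets were kept. Scrublet (expected rate 8%) called 186 of the 9573 cells (1.94%), and their removal was an alternative. CPM of a class is its summed UMIs of a gene per 1000000 summed UMIs. Ratios have exact conditional binomial intervals. A gene was tested against the 4-fold size rule with at least 100 UMIs in both classes together, with classes at 0 set to 3 counts. Named genes are the 9 members, genes of the wider list with at least 10 UMIs in a class, list markers, and the 3 genes most alike to each member; 1 gene of the wider list is not reported here. The comparisons by globin share, by C3 level, per Cxcl12 and per erythroid UMI, the genes named for the leading Clu cell, Pf4 and the motifs were chosen after values were seen. Gene IDs were matched to GENCODE M21, and promoter stretches came from RefSeq. The ratio functions were tested on simulated counts. Python 3.11.15, scipy 1.17.1 and scanpy 1.11.5 were used. Alternatives were a mitochondrial limit of 10%, at least 500 genes, rep1 or rep2 alone (with 1 UMI per gate marker), the average of every cell's CPM, a total without mitochondrial and globin genes, Cxcl12 limits of 2500 and 10000 CPM, the other gates' cuts doubled and halved, thinning to 1000 UMIs, and no minimum of UMIs per gene.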

Additional observations from a re-analysis of the deposited data

How the results depend on the processing

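No paired analysis was possible because there is 1 pooled group. The counts of members at least 4-fold higher in LEPR stromal-like cells stayed at 0 against fibroblast-like and 5 against megakaryocyte-like cells under every alternative run, were 5 or 6 against endothelial-like cells (5 to 6 with rep1 or rep2 left out) and 6 against erythroid-like cells, or 7 with no minimum of UMIs per gene, when Cfd counted. The main calls against endothelial-like and megakaryocyte-like cells passed the UMI minimum through LEPR stromal-like cells alone, so nothing is read from their constancy. Highest in LEPR stromal-like cells were 6 of the 9 genes, 5 with every cell's CPM averaged, 4 with Cxcl12 at 2500 CPM or with thinning, and 7 without the cell holding the most UMIs of each gene (6 with either of rep1 and rep2 left out). The 6 were C3, C4b, C1s1, C1ra, Cfb and Cfd, which has almost no counts, and did not include Clu. Only C4b, C1ra and Cfb had intervals clear of every other class. Over the 5 lists other than the erythroid one, the member and list pairs with UMIs in both groups of LEPR stromal-like cells and an interval above 0 numbered 19 (Cfd by the acute phase list, with no UMI in the rest, is not among them), with 17 to 24 under the alternatives (19 to 20 with rep1 or rep2 left out). Of the ratios between classes with an interval that excludes 0, 2 changed sign: Clu over fibroblast-like cells went from log2 -1.51 to 0.29 without the leading cell, an alternative added after the data were seen, and Clu over megakaryocyte-like cells from 0.45 to -0.15 with every cell's CPM averaged. Among those whose interval covers 0, the ratios over fibroblast-like cells changed sign for C3 under 3 alternatives (-0.19 to -0.10), for C1s1 under 2 (-0.17 to -0.055) and for Cd59a under 5 (-0.46 to -0.080). Within LEPR stromal-like cells, C1s1 by the osteogenic list went from log2 -0.21 to 0.046 with Cxcl12 at 2500 CPM, and the cause was not tested. The share of all genes at least 4-fold higher moved by over 1.5 times with no minimum of UMIs (from 7.33% to 4.65% against fibroblast-like, 6.6% to 3.52% against endothelial-like and 27.5% to 17.1% against megakaryocyte-like cells) and with thinning (from 30.0% to 17.8% against erythroid-like cells). Leaving mitochondrial and globin genes out of the total moved the median of all genes by under 0.1 on the log2 scale. The 85 fibroblast-like and 46 endothelial-like cells and the single pooled sample limit what can be compared.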
